A study of Mus musculus with 2 samples.

Results

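Barcodes dominated by haemoglobin transcripts were defined as those in which at least 50% of all counted molecules came from the 4 adult globin genes Hba-a1, Hba-a2, Hbb-bs and Hbb-bt. The barcodes were thus chosen by their measured globin share, which took in 329 of 10070 barcodes, 246 of 5581 in the library of uninjured muscle and 83 of 4489 in the library of injured muscle, with no limit on the number of genes detected. Both libraries came from C57B/6 mice aged 12 weeks and fed standard chow, whose tibialis anterior, a muscle of the lower leg, had been digested with a muscle protease. The number of animals behind a library is not stated. Injury was an intramuscular injection of 1.2% barium chloride, which makes muscle fibres degenerate, and the injured muscle was taken after 24 h. The injection is named in the treatment text of both samples, so the labels leave unsaid whether the uninjured muscle had received any. Transcripts were captured in droplets at their 3′ ends and counted as unique molecular identifiers (UMIs), each standing for 1 captured molecule. Counts were therefore not scaled by transcript length.

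Mammalian red cells lose their nucleus and then, as reticulocytes, clear their mitochondria and ribosomes while they go on making haemoglobin from messenger RNA laid down earlier. Haemoglobin is a tetramer of alpha and beta chains around haem, which is made from glycine and succinyl-CoA by a pathway that starts with the enzyme encoded by Alas2 and ends with ferrochelatase, Fech. In C57BL/6 mice the alpha chains come from the neighbouring genes Hba-a1 and Hba-a2, and the adult beta chains come from Hbb-bs and Hbb-bt. In muscle, red cells reach a suspension with the blood held in its vessels or spilled into the tissue.

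There was 1 library per group, so the conditions could not be tested and no difference had a replicate check. All intervals given are 95% intervals that cover counting error only, and differences are described by size. The uninjured library held 22994502 UMIs with 1843 to 65643 per barcode, and the injured library held 39014762 UMIs with 3333 to 55935 per barcode. Xist, made from the silenced X chromosome of females, had 17650 UMIs in the other barcodes of the uninjured library and 0 in those of the injured library. The Y-linked genes Ddx3y and Eif2s3y had 0 and 0 UMIs there in the uninjured and 2252 and 1944 in the injured library, so the libraries differed in transcripts of the sex chromosomes, and the labels used here give no sex. Injury, any difference in sex and the library cannot be told apart. The libraries shared 33 barcode sequences, of which 1 was haemoglobin-dominated among uninjured and 1 among injured barcodes, and 0 were so in both. No doublet caller was run and no barcode was removed. The markers of other cells in each barcode were counted instead.

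In the GENCODE M21 annotation of GRCm38, the assembly also called mm10, Hba-a1 (ENSMUSG00000069919) lies at chr11:32283511-32284465 and Hba-a2 (ENSMUSG00000069917) at chr11:32296489-32297298, both on the plus strand. Hbb-bs (ENSMUSG00000052305) lies at chr7:103826534-103828096 and Hbb-bt (ENSMUSG00000073940) at chr7:103812524-103813996, both on the minus strand. Alas2 (ENSMUSG00000025270) lies at chrX:150547375-150570638 on the plus strand. The 150 bases before the RefSeq start of each gene (GRCm38.p6) are shown because the split between the gene copies is one of the results below. Capitals mark CCAAT and CACCC and also TATAA and GATAA, on either strand, so that the reverse of CCAAT reads as ATTGG here, that of CACCC as GGGTG and that of GATAA as TTATC. Some GENCODE models start further upstream than RefSeq's, so the windows of Hba-a1 and Hbb-bs lie inside the gene spans given above. Those of Hba-a2, Hbb-bt and Alas2 overlap their spans in part.
Hba-a1 promoter, chr11:32283522-32283671, plus strand: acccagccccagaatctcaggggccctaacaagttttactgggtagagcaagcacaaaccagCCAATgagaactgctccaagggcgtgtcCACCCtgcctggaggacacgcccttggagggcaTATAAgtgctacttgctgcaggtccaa
Hba-a2 promoter, chr11:32296342-32296491, plus strand: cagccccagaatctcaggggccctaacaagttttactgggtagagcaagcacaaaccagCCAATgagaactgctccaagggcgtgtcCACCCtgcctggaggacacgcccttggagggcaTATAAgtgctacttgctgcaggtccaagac
Hbb-bs promoter, chr7:103827929-103828078, minus strand: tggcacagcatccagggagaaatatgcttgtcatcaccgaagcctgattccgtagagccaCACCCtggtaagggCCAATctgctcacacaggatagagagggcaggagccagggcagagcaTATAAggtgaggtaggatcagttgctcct
Hbb-bt promoter, chr7:103813924-103814073, minus strand: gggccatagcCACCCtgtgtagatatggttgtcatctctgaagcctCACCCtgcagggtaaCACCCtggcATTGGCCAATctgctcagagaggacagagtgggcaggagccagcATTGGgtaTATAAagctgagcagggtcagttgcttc
Alas2 promoter, chrX:150547267-150547416, plus strand: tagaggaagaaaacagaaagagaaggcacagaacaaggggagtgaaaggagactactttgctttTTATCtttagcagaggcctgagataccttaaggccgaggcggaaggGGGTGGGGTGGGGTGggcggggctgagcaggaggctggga

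Over the 147 aligned bases the windows of the alpha genes were identical, whereas those of the beta genes matched at 72.7% of 150 bases. The motifs CACCC and CCAAT and also TATAA were present in each of the 4 globin windows, a combination found in 1.10% of 32851 windows of the same length. Singly, CACCC was in 37.4% of those windows, CCAAT in 24.5% and TATAA in 14.2%. GATAA was in 13.3% of them, in 0 of the 4 globin windows and in the window of Alas2, which also had 3 matches to CACCC. Hbb-bt had 3 matches each to CACCC and CCAAT, and the other globin windows had 1 of each. No match overlapped another. These matches describe letters and not binding. The transcripts of the gene pairs were close as well. The coding sequences of Hba-a1 and Hba-a2 differed at 1 of 429 bases and their aligned tails after the stop codon at 0 of 74, so the division of alpha UMIs between these 2 genes is uncertain. The coding sequences of Hbb-bs and Hbb-bt differed at 1 of 444 bases, but their tails were only 71.0% identical, which sets 3′ counts of the beta genes apart.

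In the uninjured library 4.41% of barcodes (3.88 to 4.98) were haemoglobin-dominated, and in the injured library 1.85% (1.48 to 2.29). Among barcodes with at least 3333 UMIs, the lowest count in the injured library, the shares were 7.56% and 1.85%, and 203 of the 246 uninjured ones were kept. These shares are relative to all other captured cells and are set in part by the UMI minimum of each library. The summed globin share of a barcode chose it and is given as a description. Its median was 96.2% in uninjured and 95.7% in injured haemoglobin-dominated barcodes, and 200 of 246 and 68 of 83 lay at 90% or above. The values nearest the limit were 50.4%, 52.0% and 52.3% inside it and 46.4%, 44.3% and 43.9% outside it in the uninjured library. In the injured library they were 50.02%, 51.7% and 52.6% inside and 37.6%, 36.2% and 34.3% outside. Few barcodes were intermediate, since 48 uninjured and 30 injured barcodes had from 1% to below 50% globin, against 5287 and 4376 under 1%.

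**Figure D1:**
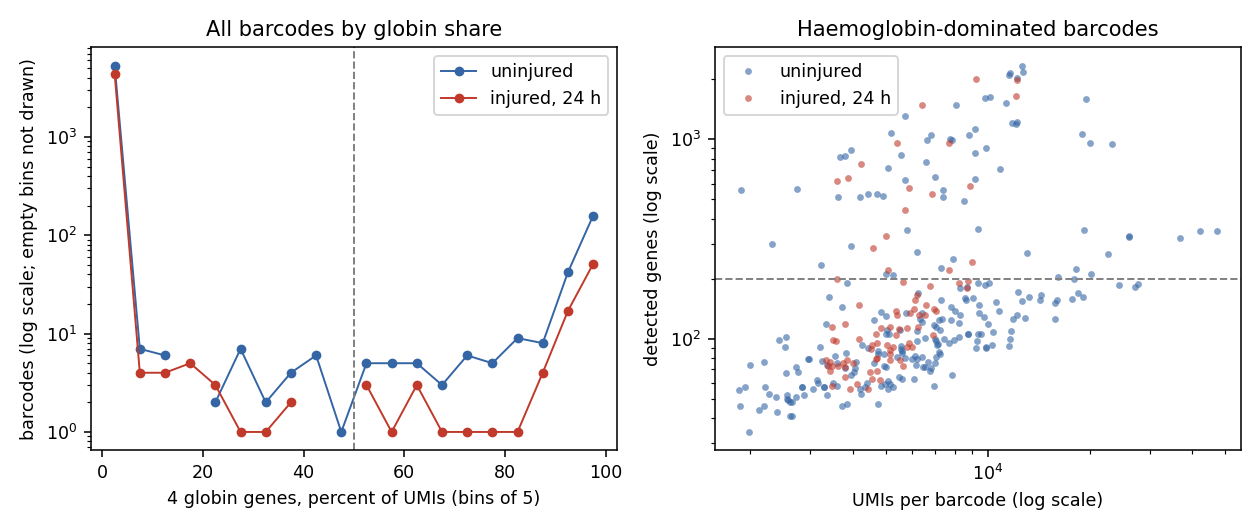
Left, the number of barcodes (log scale) in bins of 5 percentage points of globin share, for all barcodes of the uninjured (blue) and injured (red) library, with the 50% limit dashed; most lie at either end. Right, detected genes against UMIs per barcode (both log scales) for the 246 uninjured and 83 injured haemoglobin-dominated barcodes, 1 point each, with 200 genes dashed.

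Most of these barcodes held little besides globin RNA. Their UMIs ranged from 1847 to 47376 with a median of 6386.5 in the uninjured library and from 3339 to 12176 with a median of 5153 in the injured library. Outside the 4 globin genes the median was 274 and 205 UMIs. Genes detected numbered 34 to 2342 (median 110.5) and 56 to 1997 (median 113), and 178 of 246 and 64 of 83 barcodes had fewer than 200. Thinned to 1800 UMIs each, haemoglobin-dominated barcodes had a median of 45.5 and 54 genes and other barcodes 970 and 849.5. The thinned UMIs included globin, by which the barcodes were chosen, so a low gene number follows in part from the rule. The scatter of genes against UMIs shows a dense lower band, in which genes increase slowly with UMIs, and a looser upper group. The limit of 200 genes does not part them exactly. The 68 uninjured and 19 injured barcodes with 200 genes or more include deep ones of the lower band. An uninjured barcode with 47376 UMIs, for example, had 346 genes, 97.2% globin and 1 Malat1 UMI.

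RNA that stays in the nucleus differed between barcodes with fewer than 200 genes and those with 200 or more. Malat1, an abundant nuclear RNA, had a median of 0 UMIs in barcodes with fewer than 200 genes in each library, with a highest value of 4 in uninjured and 3 in injured ones. In haemoglobin-dominated barcodes with 200 genes or more its median was 23 and 20 UMIs, with values from 0 to 520 and from 0 to 167. In the other barcodes the median was 115 and 95. Thinned to 1800 UMIs, 30.5% of uninjured and 26.5% of injured haemoglobin-dominated barcodes had a Malat1 UMI, against 99.4% and 99.2% of other barcodes. Before thinning the shares were 51.6% and 38.6%. Thinning was by all UMIs, so it left far fewer non-globin UMIs in haemoglobin-dominated than in other barcodes. Of non-globin UMIs, 3 nuclear long non-coding RNAs together held 2.90% in uninjured and 1.29% in injured haemoglobin-dominated barcodes. Other barcodes had 3.90% and 1.49%, so on that scale the difference was small. Xist had 94 UMIs in 40 of the 246 uninjured barcodes, of which 33 had 200 genes or more, and 0 UMIs in the 83 injured ones, where the exact 95% limit on barcodes with a UMI was 4.35%.

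The alpha genes gave nearly equal shares of globin UMIs with the beta genes. Hba-a1 gave 27.8%, Hba-a2 22.1%, Hbb-bs 42.0% and Hbb-bt 8.11% of the 1798714 globin UMIs of uninjured haemoglobin-dominated barcodes. Of the 404838 globin UMIs of injured ones, Hba-a1 gave 26.4%, Hba-a2 20.2%, Hbb-bs 45.1% and Hbb-bt 8.22%. The alpha genes together gave 49.9% (49.83 to 49.98) of uninjured and 46.6% (46.5 to 46.8) of injured globin UMIs. Per barcode the alpha share ran from 37.0% to 73.0% (median 50.05%) and from 33.8% to 59.4% (median 47.9%), so the ranges overlapped broadly. Its standard deviation between barcodes, 4.64 and 5.37 percentage points, was larger than the 0.724 and 0.741 that counting error alone gives.

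Within the alpha pair the split varied little between barcodes. Hba-a1 took 55.6% of alpha UMIs in uninjured and 56.7% in injured barcodes, with standard deviations between barcodes of 2.44 and 2.93 percentage points, against 1.02 and 1.07 from counting. As said above, reads of these copies can hardly be told apart. The beta pair varied far more. Hbb-bt took 16.2% (16.1 to 16.3) of beta UMIs in the uninjured library, but single barcodes ran from 1.38% to 26.4% around a median of 15.8%. In the injured library it took 15.4% (15.3 to 15.6), and barcodes ran from 5.30% to 22.5% around a median of 15.5%. The standard deviations between barcodes, 6.19 and 4.49 points, stood against 0.765 and 0.747 from counting error. The difference between the libraries was small beside this spread.

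**Figure D2:**
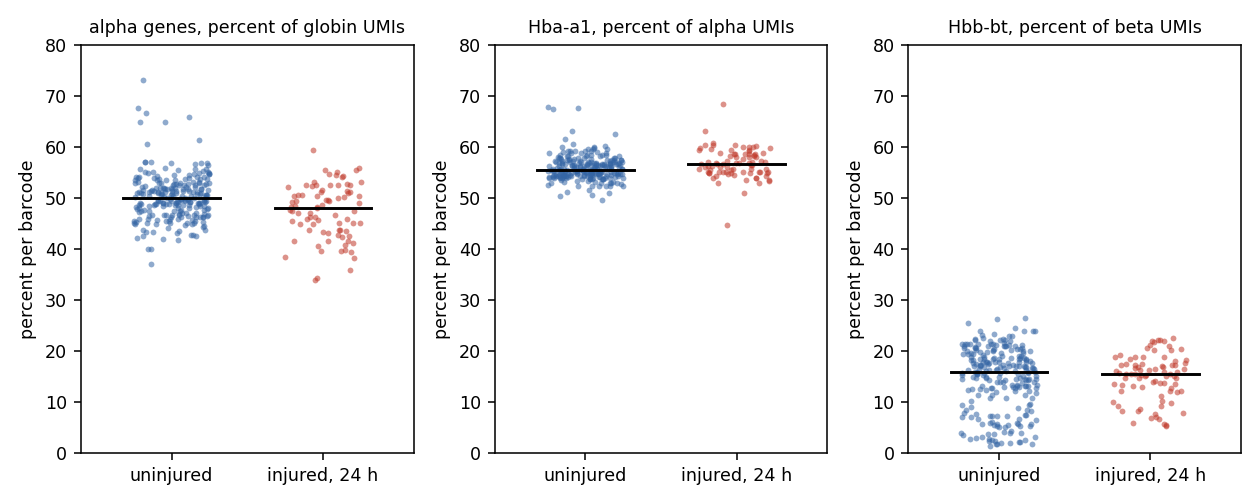
Shares per barcode in percent, from left to right the alpha genes within globin UMIs, Hba-a1 within alpha UMIs and Hbb-bt within beta UMIs, with 1 point per haemoglobin-dominated barcode (246 uninjured in blue, 83 injured in red) and the median as a bar. The Hba-a1 share is tightly grouped and the Hbb-bt share is spread from 1.38% to 26.4% in the uninjured library.

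Globin UMIs also occurred in other barcodes. Of those under 1% globin, 70.8% of uninjured and 48.6% of injured barcodes had at least 1 globin UMI, with medians of 1 and 0, and together they held 7143 and 3612. Hbb-bt took 11.1% of the beta UMIs of uninjured and 9.87% of injured barcodes of this kind, lower than in haemoglobin-dominated barcodes. The alpha genes took 37.6% and 47.5%. In barcodes with 1% to below 50% globin, Hbb-bt took 9.32% and 8.56%. The theta-like globin Hbq1a was seen mainly in haemoglobin-dominated barcodes. It had 55 UMIs in 43 uninjured and 5 UMIs in 5 injured ones, against 4 and 1 UMIs in all other barcodes. Hbq1b, its near copy, had 20 and 2 UMIs, against 0 and 3 in other barcodes. The embryonic globins Hba-x, Hbb-bh2 and Hbb-y had 0 UMIs in these barcodes and Hbb-bh1 had 1.

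Red cell genes held a larger share of the transcripts outside globin than they did in other barcodes. Levels below are in CPM, UMIs of a gene per 1000000 UMIs outside the 4 globin genes, and all genes of these barcodes shared in the choice, so they are described without a test. The 5 lists of red cell genes together held 8.43% (8.30 to 8.57) of non-globin UMIs in uninjured and 10.9% (10.6 to 11.2) in injured haemoglobin-dominated barcodes, against 0.959% and 0.589% in the other barcodes. With fewer than 200 genes per barcode the shares were 17.0% and 25.4%. In UMIs per barcode the difference was small, with medians of 38 and 43 for the 5 lists together, against 32 and 45 in other barcodes. Of 979 genes with at least 20 UMIs in uninjured haemoglobin-dominated barcodes, 13.7% were at least 2-fold higher and 4.29% at least 2-fold lower than in other barcodes. Of 377 such genes in the injured library 28.6% were higher and 14.1% lower. Of the red cell genes with 20 UMIs, 23 of 27 and 20 of 22 passed 2-fold upwards and 0 downwards. The lists were chosen with earlier results of these data known, so these counts are a description. The 5 lists held 72 genes found in the data, of which 15 and 10 had 0 UMIs in haemoglobin-dominated barcodes. The 20 UMIs were required in these barcodes only, here and in the comparisons with other barcodes below. Genes scarce in haemoglobin-dominated barcodes were therefore left out of such counts. At least 10-fold higher in both libraries were 27 of 324 genes, or 8.33%.

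Genes of haem synthesis and iron import were carried almost wholly by Alas2, Fech and Slc25a37. Alas2, the marker that the rule had not used, had UMIs in 241 of 246 uninjured barcodes, from 0 to 86 with a median of 10. In the injured library all 83 had it, from 1 to 31 with a median of 13. Its level was 19638 CPM (18954 to 20341) and 21065 CPM (19786 to 22406), against 2.81 and 3.25 CPM in other barcodes. Thinned to 1800 UMIs, 88.2% and 95.2% of haemoglobin-dominated barcodes had an Alas2 UMI, against 0.319% and 0.159% of other barcodes. Set against globin, Alas2 had 17.3 (16.7 to 17.9) UMIs per 10000 globin UMIs in uninjured and 24.9 (23.4 to 26.5) in injured haemoglobin-dominated barcodes. In barcodes under 1% globin it had 18.2 and 27.7 per 10000, from 13 and 10 UMIs. Fech, ferrochelatase, had 450 and 136 UMIs, 98.1-fold and 138-fold above the other barcodes, and Slc25a37, which imports iron into mitochondria, had 109 and 48 UMIs, 115-fold and 67.6-fold above them. These 3 were the only ones of 15 genes on the list with 20 UMIs in either library. The middle of the pathway was scarcely seen, since Alad, Uros, Urod, Cpox and Ppox had 0 to 10 UMIs each.

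Membrane and skeleton genes held 0.584% of uninjured and 0.561% of injured non-globin UMIs, and 3 of 5 and 4 of 4 with 20 UMIs were at least 2-fold higher than in other barcodes. Slc4a1, the band 3 anion exchanger, had 26 and 20 UMIs, against 2 and 2 in all other barcodes, but 16 of its 20 injured UMIs were in a single barcode. Epb41, which ties the membrane to the spectrin skeleton, was 37.5-fold and 84.99-fold above other barcodes with 152 and 51 UMIs. The spectrin gene Sptb had 2 UMIs in uninjured and 3 in injured barcodes. Not all genes of the list marked red cells, as the water channel Aqp1, also made by capillary endothelium, was at 1.20-fold and 3.69-fold the level of other barcodes with 572 and 27 UMIs.

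Among genes of metabolism and protection from oxidants, Bpgm was the most abundant in both libraries. Bpgm, the mutase that makes the phosphate ligand of haemoglobin, had 1205 UMIs in 189 uninjured and 456 UMIs in 66 injured barcodes, 409-fold (365 to 460) and 1117-fold (967 to 1291) above the other barcodes. Car2, a carbonic anhydrase, had 100 UMIs in 30 uninjured barcodes and 138 UMIs in 14 injured ones. In the injured library 41 and 49 of these were in 2 barcodes. Gpx1, which reduces peroxides with glutathione, had 698 and 436 UMIs and was 13.8-fold and 9.45-fold above other barcodes. Prdx2, the peroxiredoxin of red cells, was 3.65-fold and 12.8-fold above them with 129 and 151 UMIs. All 7 genes of the list with 20 UMIs in the uninjured library and all 6 in the injured library were at least 2-fold higher than in other barcodes. These folds are in CPM of non-globin UMIs. In UMIs per barcode the list had medians of 5 in uninjured and 6 in injured haemoglobin-dominated barcodes. Other barcodes had medians of 3 and 11, so in the injured library the order was the other way.

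Genes of reticulocyte maturation held the largest red cell share, 4.03% and 4.99% of non-globin UMIs. Per barcode their median was 18 and 21 UMIs, against 15 and 27 in other barcodes. Ube2l6, a conjugating enzyme of ubiquitin-like proteins, had 1103 UMIs in 213 uninjured and 318 UMIs in 77 injured barcodes, 132-fold (121 to 143) and 318-fold (278 to 362) above other barcodes. Mkrn1, a ubiquitin ligase, had 1086 and 310 UMIs, 129-fold and 48.9-fold above. Bnip3l, the receptor by which reticulocytes clear mitochondria, had 535 and 178 UMIs, 14.1-fold and 51.6-fold above. Fam46c, a poly(A) polymerase, and the exonuclease Isg20 were 186-fold and 104-fold above in the uninjured and 125-fold and 176-fold above in the injured library. Ubb, a ubiquitin gene, had 1583 and 820 UMIs and was 3.31-fold and 9.11-fold above. Ubiquitin genes share near-identical repeats, so its counts are uncertain.

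Ranked by the smaller ratio of the 2 libraries, the 15 genes farthest above other barcodes included Alas2, Slc4a1, Bpgm, Rec114, Car2, Ube2l6, Fam46c, Isg20, Fech, Ube2c, Fam220a, Slc25a37 and Isca1. Of the 15, 4 belonged to none of the red cell lists. Rec114, known as a protein of meiotic recombination, had 106 UMIs in 77 uninjured and 23 UMIs in 14 injured barcodes, 342-fold and 1320-fold above the others. Fam220a had 888 and 173 UMIs, 108-fold and 87.3-fold above, and its counts are uncertain because 2 overlapping annotated genes carry that symbol. Ube2c, a ubiquitin-conjugating enzyme of mitosis, had 64 UMIs in 38 and 65 UMIs in 21 barcodes, 30 of the latter in a single barcode, and was 91.1-fold and 442-fold above. Its annotated span, chr2:164769898-164778822, overlaps that of the troponin gene Tnnc2 on the other strand. Isca1, which assembles iron-sulphur clusters, had 151 and 34 UMIs, 54.2-fold and 52.5-fold above.

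**Figure D3:**
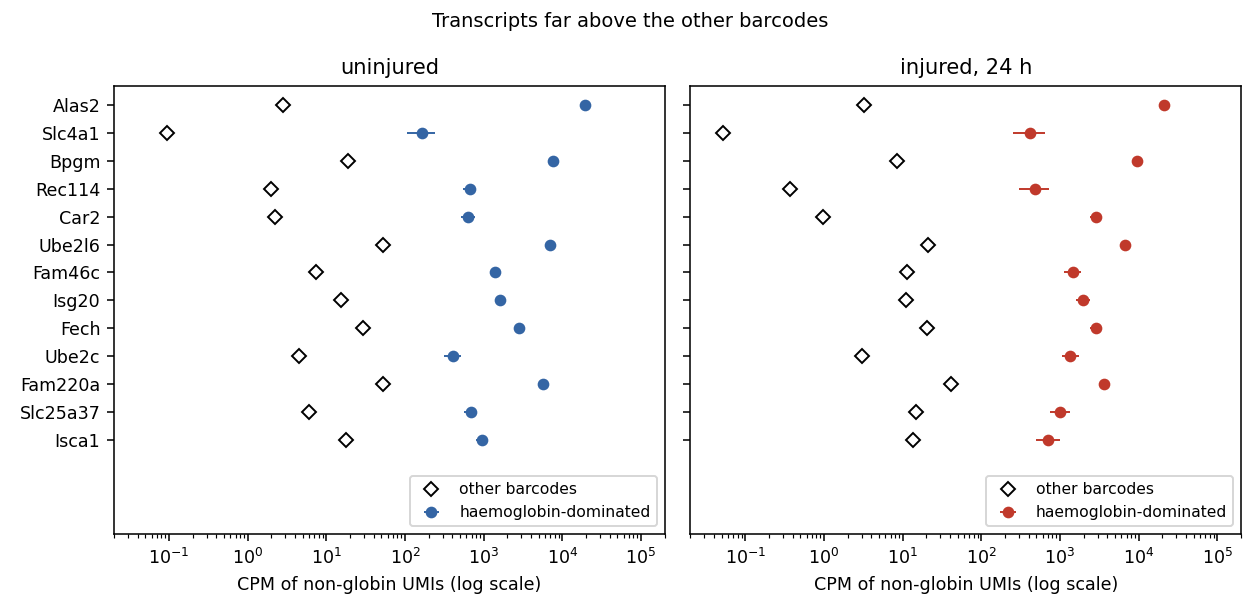
Level of 13 of those 15 transcripts, in CPM of non-globin UMIs on a log scale, in haemoglobin-dominated barcodes (filled, with the 95% counting interval) and in all other barcodes (open diamonds) of the uninjured (left, blue) and injured (right, red) library. Each filled point lies at least 52.5-fold to the right of its diamond.

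Regulators of red cell precursors had few UMIs. The transcription factors Gata1 and Klf1 had 0 UMIs each in uninjured and 3 each in injured haemoglobin-dominated barcodes, and the erythropoietin receptor Epor had 1 and 1. All 12 regulators and receptors together had 45 and 32 UMIs, of which Lmo2, also made by endothelial cells, had 20 and 16. Cell cycle genes had 14 UMIs in 246 uninjured and 60 in 83 injured barcodes, and 56 of those 60 lay in 2 barcodes. The first of these 2 had 7682 UMIs, 69.7% globin, 954 detected genes, 46 cell cycle UMIs, 167 Malat1 UMIs, 41 Car2 UMIs and 30 Ube2c UMIs. The second had 4244 UMIs, 64.9% globin, 755 genes, 10 cell cycle UMIs, 13 Malat1 UMIs and 49 Car2 UMIs. Both stood high in the Hbb-bt share of beta UMIs, at 20.7% and 22.2%. The precursor genes Rhd and Hemgn were also concentrated, with 15 of 18 and 12 of 18 injured UMIs in a single barcode each. No uninjured barcode had 10 cell cycle UMIs.

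Mitochondrial genes took a larger share of non-globin UMIs in these barcodes than in other barcodes, and ribosomal protein genes a smaller one. The 13 mitochondrially encoded genes held 14.1% of non-globin UMIs in uninjured and 9.67% in injured haemoglobin-dominated barcodes, against 5.10% and 2.92% in other barcodes. Of those with 20 UMIs, 12 of 12 and 11 of 11 were at least 2-fold higher than there. Per barcode the order was the other way, with a median of 74 and 26 mitochondrial UMIs against 175 and 221 in other barcodes. Of the muscle fibre genes, which red cells do not make, 8 of 8 and 2 of 2 with 20 UMIs were at least 2-fold higher on the same scale. The mean number of fibre UMIs was 3.24 and 1.46 per haemoglobin-dominated barcode and 6.25 and 2.79 per other barcode. The part of free RNA in the mitochondrial level was not tested. The 84 ribosomal protein genes held 13.1% and 12.4%, against 16.6% and 22.1%, with a median of 20 and 21 UMIs per barcode against 494 and 1380. Ferritin light chain, Ftl1, had 3060 UMIs in 240 of 246 uninjured and 971 UMIs in all 83 injured barcodes, 6.72-fold and 1.32-fold the level of other barcodes.

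Markers of other cells sat mainly in the barcodes with 200 genes or more. At least 10 UMIs of any of 12 other cell lists were found in 54 of 68 uninjured and 12 of 19 injured barcodes of that kind. Among barcodes with fewer than 200 genes they were found in 8 of 178 and 3 of 64, of which 7 and 3 had them from the muscle fibre list. In the uninjured library 41 barcodes had at least 10 endothelial UMIs, 8 fibro-adipogenic, 4 glial, 2 tenocyte, 2 monocyte and macrophage, 1 pericyte, 1 lymphocyte and 12 muscle fibre UMIs. In the injured library 8 had at least 10 monocyte and macrophage UMIs, 5 neutrophil, 2 endothelial, 1 pericyte, 3 muscle fibre and 1 platelet UMIs. The last of these had 13 platelet UMIs beside 114 monocyte and macrophage UMIs. Satellite cell and dendritic lists reached 10 UMIs in 0 barcodes of either library. Summed over all haemoglobin-dominated barcodes, the 12 endothelial genes had 2572 uninjured and 143 injured UMIs, with 0 genes at 0 in each library. The 14 monocyte and macrophage genes had 220 and 435 UMIs with 4 genes and 1 gene at 0. The 10 neutrophil genes had 1 and 290 UMIs with 9 and 4 genes at 0, Ly6g among them in both. Platelet genes had 5 and 29 UMIs with 10 and 9 of 12 at 0.

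Red cell genes tended to be higher in injured than in uninjured haemoglobin-dominated barcodes. Among 29 red cell genes with 20 UMIs or more over both libraries, 11 passed 2-fold upwards in CPM and 1 downwards, Aqp1 at 0.156-fold (0.102 to 0.229). Their median log2 ratio was 0.53. Of all 1285 genes measured, 17.7% passed 2-fold upwards and 23% downwards, and the median was -0.08. Taken per globin UMI the median of all genes moved to 0.34 and that of the red cell genes to 0.95. On that scale 13 of the 29 passed 2-fold upwards and 1 downwards, against 27.1% and 12.5% of all genes. In barcodes with fewer than 200 genes, 7 of 22 red cell genes were higher and 1 lower in CPM, against 15.3% and 5.93% of 236 genes. Per globin UMI these counts were 8 and 1, against 24.6% and 5.08%.

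Of 8 genes of metabolism and protection from oxidants, 6 passed 2-fold upwards, and the median log2 ratio was 1.16. Of the 1293 injured UMIs of this list, 114 and 112 lay in the 2 barcodes rich in cell cycle UMIs, which are included here. Prdx2 was 3.87-fold (3.04 to 4.93) higher, Blvrb, a biliverdin and flavin reductase, 2.31-fold (1.62 to 3.27) and Gpx1 2.07-fold (1.83 to 2.33). Per globin UMI in barcodes with fewer than 200 genes they were 3.83-fold, 2.57-fold and 2.84-fold higher. The log2 ratio of Gpx1, 1.05 over all, was just under the 2-fold limit among barcodes with at least 3333 UMIs, at 0.995, without the 2 barcodes rich in cell cycle UMIs, at 0.960, and without barcodes holding at least 10 UMIs of another cell list, at 0.900. Car2 was 4.56-fold (3.502 to 5.96) higher, but without the 2 barcodes rich in cell cycle UMIs its log2 ratio went from 2.19 to 0.79. Bpgm was 1.25-fold (1.12 to 1.39) higher. The other barcodes of the injured library also held Gpx1 and Prdx2, with 37042 and 9506 UMIs, and the part of such RNA in these ratios was not tested.

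Of 5 membrane genes 2 were at least 2-fold higher. Slc4a1 was 2.54-fold (1.35 to 4.74) higher in all, but its log2 ratio was -0.86 without the 2 barcodes rich in cell cycle UMIs. Of 3 genes of haem synthesis and iron import 0 passed 2-fold, and Alas2 was at 1.07-fold (0.998 to 1.15) in CPM and 1.44-fold (1.34 to 1.55) per globin UMI. Of 12 maturation genes 2 did, Trim10, a RING protein of red cells, with 8 and 12 UMIs, and the kinase Pim1 with 25 and 22. Ubb was 1.71-fold (1.57 to 1.86) higher in CPM and 2.302-fold per globin UMI. Ube2l6 was at 0.953-fold and Mkrn1 at 0.944-fold in CPM. Hbq1a went the other way, with 55 against 5 UMIs, 0.301-fold (0.0939 to 0.745) in CPM and 0.404-fold per globin UMI.

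**Figure D4:**
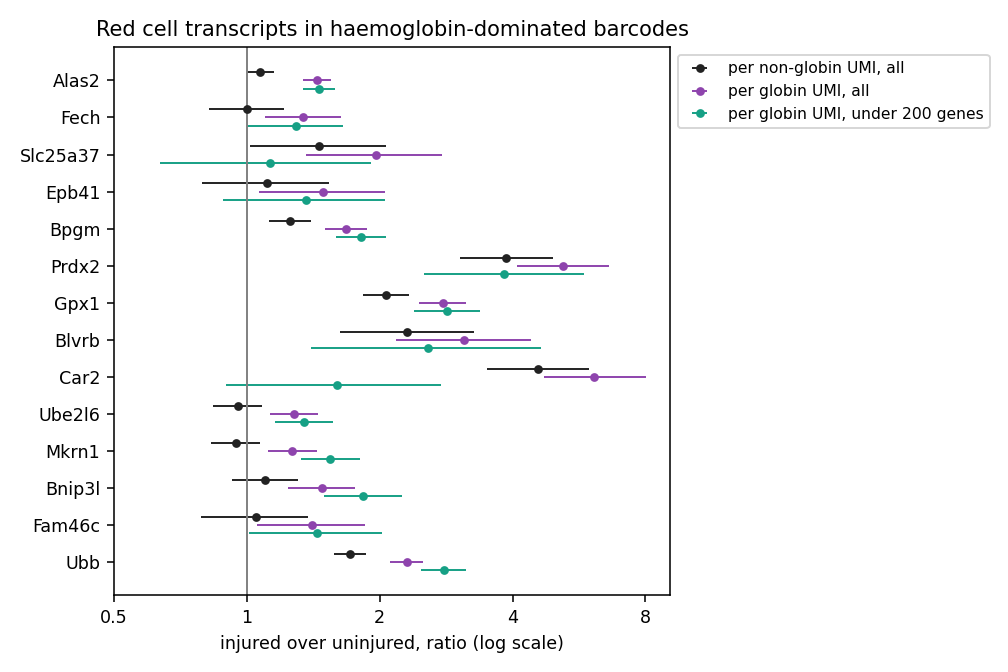
Ratio of injured over uninjured haemoglobin-dominated barcodes (log scale, 95% counting intervals) for 14 of the 29 red cell genes measured. Ratios are per non-globin UMI (black), per globin UMI (purple) and per globin UMI in barcodes with fewer than 200 genes (green). Aqp1, which passed 2-fold downwards in CPM, and Slc4a1 are among the genes not drawn. Prdx2, Gpx1 and Blvrb lie above 2 on each scale, and Car2 is at 1.597 in the barcodes with fewer than 200 genes.

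Mitochondrial genes did not follow. Of 12 measured, 0 passed 2-fold upwards and 1 downwards, mt-Co1 at 0.453-fold (0.410 to 0.499), and the median log2 ratio was -0.41. Together they had 125 (123 to 126) UMIs per 10000 globin UMIs in uninjured and 115 (111 to 118) in injured haemoglobin-dominated barcodes. In barcodes with fewer than 200 genes the values were 121 and 80.9, and in those with 200 genes or more 130 and 229.

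The genes with the most extreme ratios were not red cell genes. Ranked by the bound of the interval nearest to 1, the 10 highest were Cxcl2, Il1b, S100a8, Ccl7, S100a9, Ccl2, Ccl4, Cd14, Clec4e and Ccrl2, chemokines, cytokines and proteins known from inflamed tissue and myeloid cells. The chemokine Cxcl2 had 0 UMIs in uninjured and 408 in injured barcodes, with a lower 95% limit of 364-fold on the ratio, and 182 of the 408 were in a single barcode. Its level of 8510 CPM was below the 10149 CPM of the other injured barcodes. S100a8, a neutrophil protein, had 0 and 198 UMIs, the latter in 7 barcodes. At 4130 CPM it was above the 248 CPM of the other injured barcodes. The 10 lowest included Dcn, Sparcl1, Xist, Lims2, Tcf15, Mllt4, Cd200, Ly6c1 and Fabp4. Xist differed in the same way between the other barcodes of the libraries, as given above. Fabp4, a fatty acid binding protein of capillaries, was 5.83-fold (4.65 to 7.40) lower with 1522 and 79 UMIs, and its other barcodes had 11061 and 691 CPM. The matrix proteoglycan Dcn was 41.6-fold (11.4 to 345) lower with 275 and 2 UMIs, 97 of the former in a single barcode. In barcodes with fewer than 200 genes Cxcl2 had 0 and 38 UMIs, S100a8 0 and 1, Fabp4 88 and 9 and Dcn 26 and 1.

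The Hbb-bt share of beta UMIs went together with other red cell transcripts. Barcodes of each library were ordered by that share and divided into 3 terciles, a split made on measured values and given as a description of barcodes, which are not replicates. In the uninjured library, with 82 barcodes per tercile at either end, Mkrn1 had 1.85 (1.46 to 2.31) UMIs per 10000 globin UMIs in the lowest and 8.29 (7.65 to 8.98) in the highest tercile. Bnip3l had 1.44 and 3.98, Gpx1 0.961 and 5.43, Bpgm 3.604 and 8.35, and Cd24a, a surface glycoprotein, 0.240 and 2.44. Alas2 changed little by comparison, with 14.8 (13.7 to 16.04) and 17.7 (16.7 to 18.7), as did Ube2l6 with 5.62 and 6.20 and Ftl1 with 18.8 and 17.5. Mitochondrial UMIs ran the other way, from 169 (165 to 173) per 10000 in the lowest to 94.4 (92.2 to 96.7) in the highest tercile. Depth differed too, with median UMIs of 4436.5 and 7398.

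Among uninjured barcodes with fewer than 200 genes Mkrn1 was at 1.70 and 6.64, Gpx1 at 0.732 and 3.37 and mitochondrial genes at 145 and 104, the same order as over all, while Ube2l6 was at 5.62 and 5.25. In the injured library, with 28 barcodes in the lowest and 27 in the highest tercile, Mkrn1 had 4.85 and 11.0, Bnip3l 1.73 and 6.35, Gpx1 6.40 and 12.0 and Cd24a 2.60 and 7.50. Without the 2 injured barcodes rich in cell cycle UMIs, with 27 barcodes per tercile, Cd24a had 2.70 (1.82 to 3.86) and 4.38 (3.36 to 5.60), whose intervals overlap, and Mkrn1 4.95 and 11.0. Without barcodes holding at least 10 UMIs of another cell list, uninjured Cd24a was at 0.704 and 2.29. Mitochondrial UMIs in the injured library were 91.0 and 119 in all barcodes and 88.2 and 42.1 in those with fewer than 200 genes. Gpx1 in the latter was 5.64 (4.20 to 7.42) and 6.23 (4.85 to 7.88), so it did not differ there beyond counting error. Per barcode, the Hbb-bt share had a Spearman rho with total UMIs of 0.38 over 246 uninjured and 0.44 over 83 injured barcodes, which share a library.

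**Figure D5:**
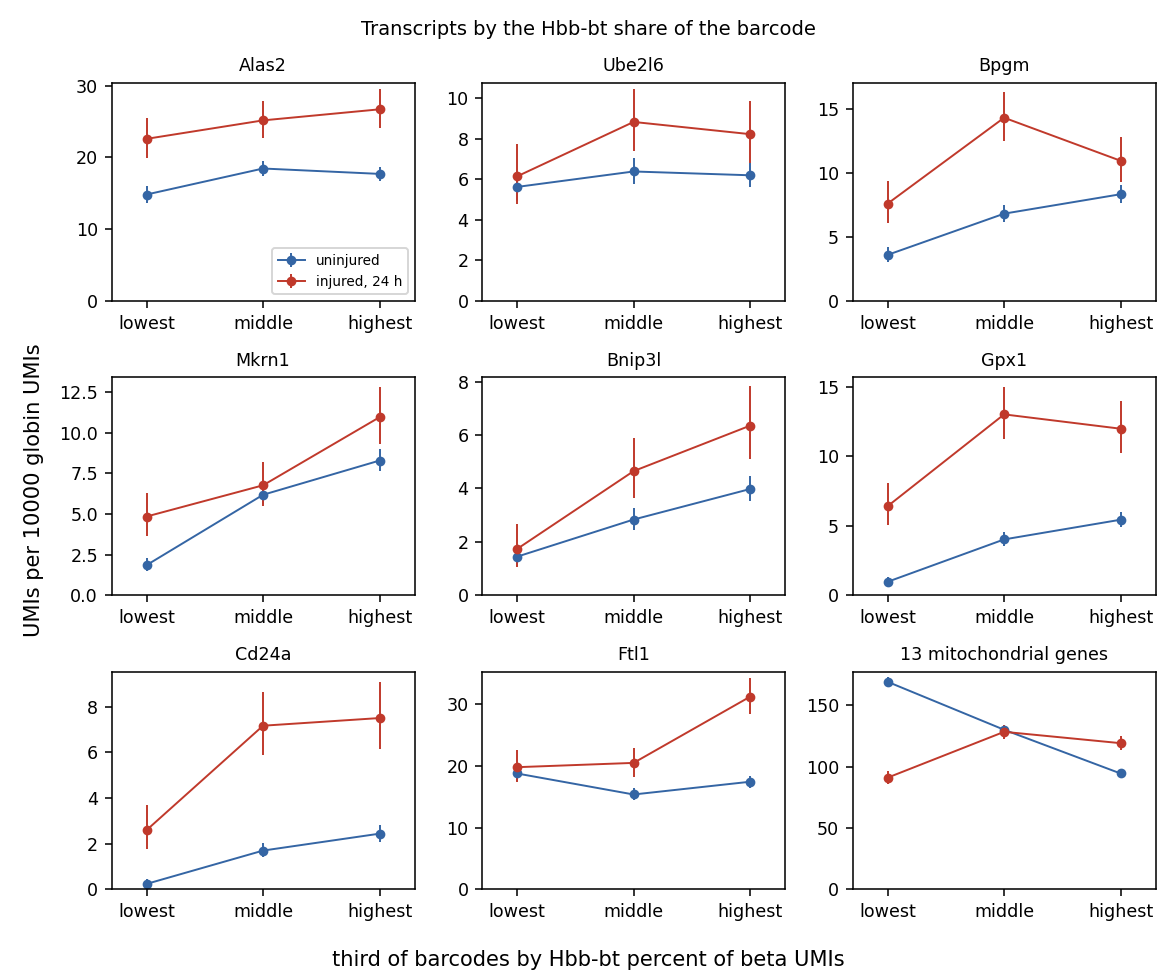
UMIs per 10000 globin UMIs (95% counting intervals) of 8 transcripts and the sum of 13 mitochondrial genes in terciles of haemoglobin-dominated barcodes ordered by the Hbb-bt share of beta UMIs, in the uninjured (blue) and injured (red) library. In the uninjured library Mkrn1, Bnip3l, Gpx1, Bpgm and Cd24a are lowest in the lowest tercile and mitochondrial UMIs are highest there.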

How the data were processed

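Droplet-based single-cell 3′ libraries of mouse muscle were used, 1 uninjured and 1 injured, grouped by the sample titles. The authors deposited UMI counts, not normalized, made with Cell Ranger 2.1.1 against mm10, per the submitters' processing notes. The annotation release, barcode threshold and strand setting were not given in the sources used here. Barcodes had been selected before deposit. Counts of rows with the same symbol were added (28625 symbols).

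The members and lists of genes were chosen with earlier results of these data known. CPM used UMIs outside the 4 globin genes. Shares have exact Clopper-Pearson, levels exact Poisson and ratios exact conditional binomial intervals at 95%, for counting error only. Ratios were taken for genes with at least 20 UMIs and called by size at 2-fold. For calls and list medians a lower count under 3 was raised to 3, never past equal rates, and ratios to other barcodes used at least 3 UMIs there. No p-value was made from barcodes. Named genes were the lists of red cell, cell cycle, nuclear, mitochondrial, ribosomal protein and 12 other cell groups, the 15 genes with the highest ratio to other barcodes, and the 10 highest and 10 lowest injured over uninjured by the interval bound nearest to 1. Of the lists, Ahsp and Flvcr1 were not found by symbol. Some genes are not reported here. The satellite cell, dendritic, pericyte and smooth muscle, and T and B lymphocyte lists had 18, 46, 113 and 11 UMIs in uninjured and 10, 12, 23 and 1 in injured haemoglobin-dominated barcodes. The alternatives were other limits of globin share, UMIs and genes, other denominators and left-out barcodes. Gene positions are from GENCODE M21 and promoters from RefSeq (GRCm38.p6, 5 of 5 genes matched). Python 3.11.15, numpy 2.4.6, scipy 1.17.1, pandas 2.3.3, biopython 1.88 and matplotlib 3.10.9 were used with seed 0. The ratio code was tested on simulated counts, in which 97.5% of intervals held the true ratio. There 95.2% of genes changed 4-fold passed 2-fold, and so did 8.25% of unchanged genes. The simulated counts had counting error alone, without the clumping of UMIs in single barcodes seen in the data.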

Additional observations from a re-analysis of the deposited data

How the results depend on the processing

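Values are given as uninjured and injured. With the limit at 90% globin, the shares of barcodes were 3.58% (uninjured) and 1.51%, alpha 50.2% and 47.1% of globin UMIs, Hbb-bt 16.3% and 15.2% of beta UMIs and red cell genes 17.9% and 25.2% of non-globin UMIs, and 45 genes were at least 2-fold higher and 29 lower, of 311. At 40% the uninjured red cell share was 7.68%. Among barcodes with at least 3333 UMIs the uninjured share of barcodes was 7.56% and its Hbb-bt share 16.5%. As medians over barcodes, alpha was 50.05% and 47.9%, the uninjured Hbb-bt share 15.8% and red cell genes 12.1% and 21.0%. With fewer than 200 genes, alpha was 50.6% and 47.3%, Hbb-bt 15.4% and 15.01%, red cell genes 17.0% and 25.4%, and 36 genes were higher and 14 lower, of 236. A minimum of 50 UMIs gave 77 higher and 106 lower of 525, and 5 UMIs gave 949 higher of 4676. CPM of all UMIs gave 338 higher and 169 lower, against 227 and 296 in CPM of non-globin UMIs. The settings that follow, and those tried on the Hbb-bt terciles, were chosen after seeing the data. Counts per globin UMI gave 348 higher and 161 lower. Without the 2 barcodes rich in cell cycle UMIs the injured red cell share was 10.6%. Without barcodes holding at least 10 UMIs of another cell list, alpha was 50.3% and 47.1%, the uninjured Hbb-bt share 16.3%, red cell genes 17.9% and 22.4%, and 49 genes were higher and 29 lower, of 308. Fewer genes were measured in the smaller sets, and otherwise the cause of these shifts was not tested. The log2 ratio of Slc4a1, 1.35 over all, was -0.64 at 90% globin, -0.36 with fewer than 200 genes and -0.86 without the 2 barcodes. Of 283 values for 38 genes under other settings, 242 kept their side of 2-fold, 38 crossed it and 3 turned. No paired analysis was possible because each group had 1 library.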
